A study of Homo sapiens with 2 samples.

Results

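Among 10023 cells of 2 single-cell libraries, 285 carried almost no mitochondrial RNA although many genes were detected in them. They were selected on 2 measured values: the 13 protein-coding genes of the mitochondrial genome (symbols starting with MT-) gave under 1% of the unique molecular identifiers (UMIs, each standing for 1 captured RNA molecule) of the cell, and at least 2000 genes were detected. They are called low-MT cells here. There were 55 of 3802 cells in the library labelled WT (1.45%, exact Clopper-Pearson 95% interval 1.09 to 1.88) and 230 of 6221 in the library labelled GATA3 KO (3.70%, 3.24 to 4.20). The difference was 2.25 percentage points (1.62 to 2.86). Reference cells were those with 5 to 20% mitochondrial UMIs and at least 2000 genes, 3100 labelled WT and 5056 labelled GATA3 KO. The question asked of the low-MT cells was whether their RNA looks like that of bare nuclei.

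The cells of both libraries were H1, a long-established human embryonic stem cell line. They had spent 48 h in BMP4 at 50 ng/ml (bone morphogenetic protein 4, a signal that starts differentiation) in mTeSR1, a feeder-free culture medium. Unmodified H1 gave the library labelled WT. The library labelled GATA3 KO was from KO-GATA3-06, a line grown from 1 clone of H1 with an inducible Cas9 after targeting of GATA3, the gene of a transcription factor. WT and KO stand below for the libraries so labelled. There was 1 library of each, so genotype, clone, Cas9 cassette and library cannot be told apart, no test was possible, and every interval covers counting error only. GATA3 transcript stood at 18.3 CPM (UMIs per 1000000, mitochondrial UMIs left out) in reference cells of WT and at 12.1 CPM in those of KO, and a count of transcript ends does not check the labels.

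Mitochondrial transcripts lie inside the organelle in the cytoplasm, so a nucleus stripped of its cytoplasm loses them. Such a nucleus is known for a large share of nuclear-retained long non-coding RNAs (lncRNAs) such as MALAT1 and NEAT1, for mRNAs held back with unspliced introns, and for a small share of the mRNAs of ribosomal proteins, which sit on cytosolic ribosomes. The mRNAs of secreted proteins are translated at the endoplasmic reticulum (ER), whose membrane is continuous with the nuclear envelope.

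The share of mitochondrial UMIs was at the median 0.319% (lowest 0.0186%, highest 0.986%) in low-MT cells of WT and 0.156% (0.0343 to 0.995%) in those in KO. These values are the rule itself. In reference cells the medians were 11.6% and 11.2%. Every low-MT cell still held mitochondrial UMIs, with a median of 39 in WT and 19 in KO. The range from 1 to 5% was thinly filled, with 62 and 45 cells. Just inside the limit (0.8 to 1%) lay 7 cells in WT and 16 in KO, with transcripts of at least 8000 bases at 2.42% and 2.50% of UMIs and ribosomal protein mRNAs at 33.1% and 31.0%. Just outside (1 to 1.2%) lay 6 and 11 cells, with 2.83% and 2.67%, and with 31.1% and 30.3%. From 2000 to below 2200 genes there were 6 and 13 low-MT cells, and from 1800 to below 2000 genes another 5 and 13 that the rule leaves out.

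**Figure D1:**
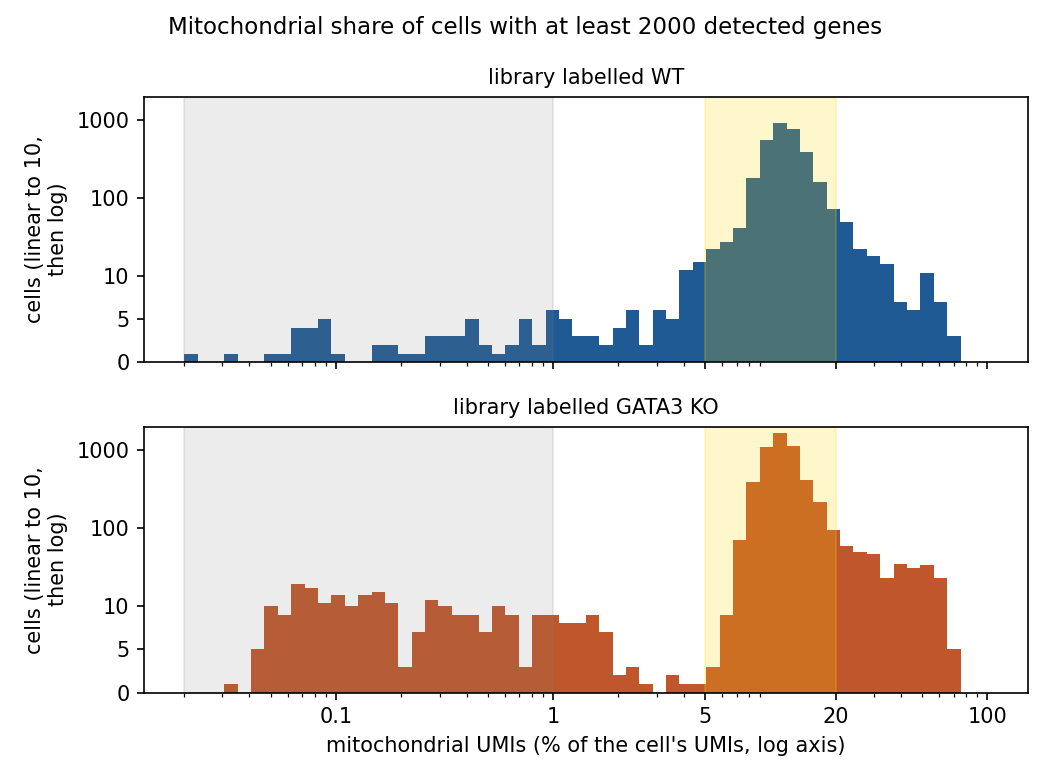
Number of cells (y axis, linear up to 10 and logarithmic above) by mitochondrial share of UMIs (x axis, logarithmic), for cells with at least 2000 detected genes in each library. Grey marks the low-MT range under 1% and yellow the reference range of 5 to 20%; the 62 and 45 cells between 1 and 5% separate them.

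Low-MT cells were shallow. They held a median of 12476 UMIs (5228 to 29348) and 2903 genes in WT, and 12262.5 UMIs (4024 to 33481) and 3191 genes in KO, against 56100.5 and 50676.5 UMIs and 6891 and 6772 genes in reference cells. Mitochondrial UMIs were therefore removed and each cell was thinned at random to 5000 UMIs, which kept 55 and 226 low-MT cells and 3098 and 5055 reference cells. Thinning equalises the counts but not whatever else goes with shallow cells, so a second reference was limited to the 10th to 90th percentile of the UMIs of low-MT cells (168 and 248 cells, medians of 13169.5 and 14813 UMIs). It is called the depth-matched reference, and the sums of most lists and the calls of some against it are given after those against the main reference. At equal UMIs, 1761 genes were detected in the median low-MT cell of WT against 2039 in the reference, and 1876.5 against 2079 in KO. The libraries shared 8 cell barcodes, 1 of them with a low-MT cell.

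None of the 3 marker genes given for these cells was past 2-fold higher in them. MALAT1 (ENSG00000251562, chromosome 11, 65497640 to 65508073 in GRCh38, lncRNA of 1 exon) stood at 2135 CPM in low-MT cells of WT and 3922 CPM in the reference, a log2 ratio of -0.88 (-1.0 to -0.76). In KO it stood at 1770 CPM and 2554 CPM, a log2 ratio of -0.53 (-0.59 to -0.46). It was thus lower, not higher, in the low-MT cells of each library. Per cell, MALAT1 made up a median of 0.22% of UMIs (0 to 0.90%) in low-MT cells of WT against 0.34% in the reference, and 0.14% (0 to 1.2%) against 0.22% in KO. Against the depth-matched reference the log2 ratios were -0.61 and -0.56, but the per-cell median of that reference was 0.20% in both libraries, so in WT the typical low-MT cell was not below it. POU3F1 (ENSG00000185668, chromosome 1, 38043829 to 38046793), a transcription factor of early neural ectoderm, stood at 3.64 and 6.19 CPM in low-MT cells and at 4.33 and 6.13 CPM in the reference. ESPN (ENSG00000187017, chromosome 1, 6424776 to 6461367), an actin-bundling protein, stood at 7.27 and 9.73 CPM against 4.20 and 7.24 CPM. Its intervals (-1.48 to 2.45, and -0.51 to 1.19) include 0, as do those of POU3F1.

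The listed nuclear-retained lncRNAs were also lower, but MALAT1 made up most of their sum. It gave 2135 of 2378 CPM in low-MT cells and 3922 of 4432 CPM in the reference of WT. In KO it gave 1770 of 1935 CPM and 2554 of 2922 CPM. Summed over the 14 of 20 listed lncRNAs found in the tables, they made up 0.238% of UMIs in low-MT cells against 0.443% in the WT reference (log2 ratio of the sum -0.90), and 0.193% against 0.292% in KO (-0.59). A gene was called past 2-fold when its log2 ratio was at least 1 in either direction and it reached 20 CPM in the higher set. Of the 8 lncRNAs tested in WT, 4 were past 2-fold lower and 0 higher, where 20.1% of all 5822 genes tested were past 2-fold lower and 1.32% higher. In KO, 3 of 7 were past 2-fold lower and 0 higher, where 8.45% of all 5825 genes were lower and 0.172% higher. NEAT1 (chromosome 11, 65422774 to 65445540), the scaffold of nuclear paraspeckles, stood at 10.9 CPM against 81.3 CPM in WT (log2 ratio -2.79, -4.66 to -1.32) and at 4.42 CPM against 45.7 CPM in KO (-3.11, -4.26 to -2.04). KCNQ1OT1, which silences an imprinted domain in cis, stood at 3.64 against 37.3 CPM (-3.05, -5.13 to -0.84) and at 3.54 against 33.0 CPM (-2.90, -4.11 to -1.75). GABPB1-AS1 had log2 ratios of -1.42 and -1.57. JPX and PURPL were nearly level in WT, at 69.1 against 63.0 CPM and 25.5 against 23.0 CPM.

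Splicing-factor mRNAs known to keep introns in the nucleus showed no excess either. Their sum was 0.221% against 0.295% in WT (-0.41) and 0.288% against 0.354% in KO (-0.30), and 4 of 19 and 2 of 17 were past 2-fold lower with 0 higher, in WT about the share of all genes. SRSF7 stood at 429 against 426 CPM in WT and at 587 against 504 CPM in KO, and its ratios against the depth-matched reference were 0.48 and 0.86. NKTR was past 2-fold lower in both, at -1.19 and -1.12, and SRRM2, a large spliceosome-associated protein, had ratios of -0.52 and -1.03. The files do not separate spliced from unspliced molecules, so intron content itself was not measured.

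Ribosomal protein mRNAs were slightly higher against the main reference. The 79 genes made up 32.5% of UMIs in low-MT cells of WT against 28.6% in the reference (log2 ratio of the sum 0.18), and 29.9% against 27.4% in KO (0.12). None was past 2-fold in either library, and 69 and 74 of the 79 ratios lay above 0. Per cell the share was at the median 32.9% (17.7 to 43.6%) in WT, where 53 of 55 low-MT cells lay above the reference median of 28.5%, and 30.2% (15.2 to 45.2%) in KO, where 188 of 226 lay above 27.2%. Against the depth-matched reference the ratio stayed at 0.18 in WT but turned to -0.02 in KO. RPS12, the most abundant of them in WT, stood at 11309 against 9500 CPM in WT and 8477 against 8216 CPM in KO, where RPS2 was higher at 10534 against 8971 CPM. Translation factors went in opposite directions in the libraries, with sums at -0.10 in WT and 0.13 in KO, or -0.26 and 0.02 against the depth-matched reference.

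**Figure D2:**
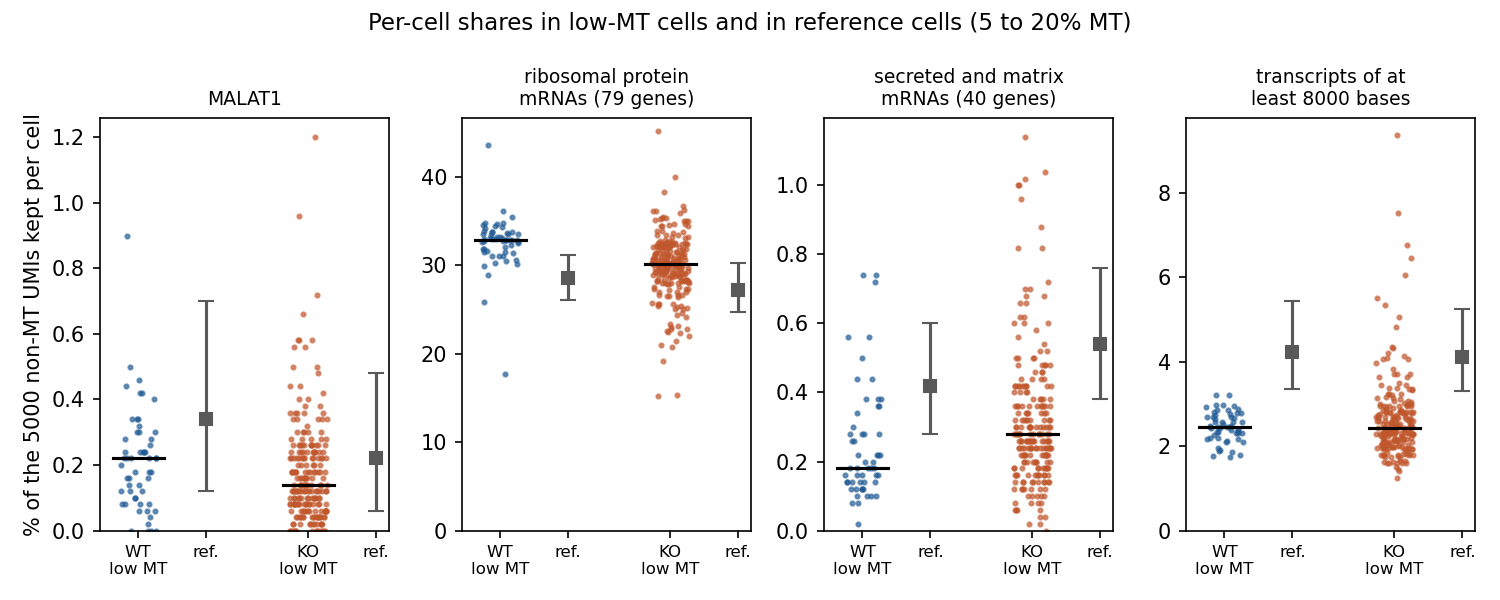
Share of each cell's 5000 retained non-mitochondrial UMIs (y axis, percent) for MALAT1, ribosomal protein mRNAs, secreted and matrix mRNAs, and transcripts of at least 8000 bases. Each dot is 1 low-MT cell and the black line their median; the grey square and bar give the median and the 10th to 90th percentile of reference cells (ref.). The median of low-MT cells lay above that of the reference for ribosomal protein mRNAs and below it for the other measures.

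mRNAs of secreted and matrix proteins were lower in low-MT cells of both libraries. Their sum over 40 genes was 0.252% against 0.438% of UMIs in WT (log2 ratio -0.80) and 0.316% against 0.560% in KO (-0.82). In WT, 13 of 26 tested (50%) were past 2-fold lower and 0 higher, beside 20.1% of all genes lower. The list median was -0.92 beside -0.19 over all genes. In KO, 10 of 23 (43.5%) were lower and 1 higher, beside 8.45% of all genes lower. The list median there was -0.89 beside -0.07. Per cell the median was 0.18% (0.02 to 0.74%) against 0.42%, and 0.28% (0 to 1.14%) against 0.54%. VCAN (ENSG00000038427, chromosome 5, 83471618 to 83582303, protein-coding), the proteoglycan versican, was past 2-fold lower in both, at 10.9 CPM or 3 UMIs against 256 CPM in WT (-4.43, -6.30 to -2.96) and at 34.5 against 284 CPM in KO (-3.0, -3.48 to -2.56). FN1, fibronectin, stood at 40 against 147 CPM (-1.85) and 72.6 against 157 CPM (-1.10). SFRP1, a secreted WNT antagonist, stood at 32.7 against 157 CPM (-2.23) and 218 against 612 CPM (-1.49). APOE, the apolipoprotein and the most abundant of the list, stood at 804 against 1204 CPM (-0.58) and 748 against 1585 CPM (-1.08). MDK, the growth factor midkine, was nearly level at 276 against 278 CPM in WT and 435 against 507 CPM in KO.

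The ER machinery that such mRNAs use was lower as well, but unevenly. The 28 ER chaperone and translocon genes summed to 0.587% against 0.833% in WT (-0.50) and 0.539% against 0.758% in KO (-0.49), with 10 and 4 of 28 (35.7% and 14.3%) past 2-fold lower and 0 higher, where 20.1% and 8.45% of all genes were lower. HSP90B1, the ER chaperone GRP94, stood at 160 against 718 CPM (-2.16, -2.62 to -1.73) and 262 against 639 CPM (-1.28, -1.45 to -1.12). HSPA5, the chaperone BiP, stood at 142 against 472 CPM (-1.73) and 188 against 431 CPM (-1.20). CALR, calreticulin, had ratios of -1.24 and -0.91, and CANX, calnexin, -1.74 and -0.94. The small translocon subunit SEC61B went the other way, at 949 against 688 CPM (0.46, 0.28 to 0.64) and 514 against 463 CPM (0.15, 0.03 to 0.27).

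Nuclear genes of the respiratory chain, whose mRNAs are made in the nucleus and translated in the cytosol, did not share the near absence of mitochondrial transcripts. The 74 genes summed to 3.39% against 2.81% of UMIs in WT (0.27) and 2.95% against 2.70% in KO (0.13), with 65 and 64 ratios above 0 and none past 2-fold. COX7C, a subunit of cytochrome c oxidase, stood at 1924 against 1630 CPM and 1912 against 1758 CPM. Its mitochondrial partner MT-CO1, which the rule used, was at 0.0442% of all UMIs against 1.60% in WT and at 0.0382% against 1.37% in KO. The genes for reading and copying mitochondrial DNA were mixed, with medians of 0.11 over 16 genes in WT and -0.30 over 12 in KO, where the sum was at 0.03. Among them TFAM, which packages mitochondrial DNA, had ratios of 0.22 (-0.29 to 0.68) and -0.30 (-0.58 to -0.03). Nuclear copies of the mitochondrial 16S rRNA gene were almost absent: MTRNR2L1 had 0 UMIs in low-MT cells, at least 6.10-fold lower than its 66.5 CPM in the WT reference and at least 23.8-fold lower than 63.3 CPM in KO, counting 0 as up to 3 UMIs over the group. These copies are near identical to the mitochondrial gene and their counts are uncertain.

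Cytoskeletal mRNAs were slightly higher. The list of 24 summed to 2.70% against 2.31% in WT (0.23) and 3.34% against 2.76% in KO (0.28), none past 2-fold in either library. TAGLN, the actin-binding transgelin, stood at 578 against 361 CPM (0.68) and 877 against 533 CPM (0.72). ACTC1 (ENSG00000159251, chromosome 15, 34790107 to 34795589), cardiac alpha actin, is not in that list and ranked highest by the naming rule, at 320 against 169 CPM (0.92, 0.60 to 1.22) and 1065 against 456 CPM (1.22, 1.13 to 1.31). Others among the 12 highest were ANXA3, an annexin, at 0.95 and 0.79, MAD2L1, a mitotic checkpoint protein, at 0.63 and 0.76, and S100A11, a calcium-binding protein, at 0.80 and 0.48. Against the depth-matched reference all 12 stayed above 0 in both libraries. Glycolysis genes summed to 1.32% against 1.08% (0.29) and 1.72% against 1.47% (0.23), although their median ratio in WT was -0.14. Within that list the enzyme GAPDH was at 0.46 and 0.25, while the glucose transporters SLC2A1, at -1.54 and -1.33, and SLC2A3, at -2.54 and -0.77, were lower.

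Against the depth-matched reference, 3.42% of all genes were past 2-fold higher and 27% lower in WT, and 1.89% higher and 13.5% lower in KO. The sums in WT and KO were then -0.70 and -0.63 for nuclear-retained lncRNAs, mostly MALAT1. They were -0.83 and -0.75 for secreted and matrix proteins, and -0.52 and -0.38 for the ER list. Those of the respiratory chain were 0.40 and 0.22, those of the cytoskeleton 0.16 and 0.46, and those of glycolysis 0.33 and 0.32. In these comparisons 3 ribosomal protein genes were past 2-fold higher in WT and 0 in KO, 1 respiratory chain gene in each library, and 0 and 2 cytoskeletal genes. Past 2-fold lower were 5 of 9 and 5 of 8 lncRNAs, and 13 of 27 and 11 of 24 secreted and matrix genes, with 0 and 1 of the latter higher. Of 28 ER genes 10 and 4 were lower, in KO about the share of all genes. The splicing-factor sums were -0.31 and -0.17, with 6 and 4 of 19 genes lower. Of 9 pluripotency markers 5 and 2 were lower.

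**Figure D3:**
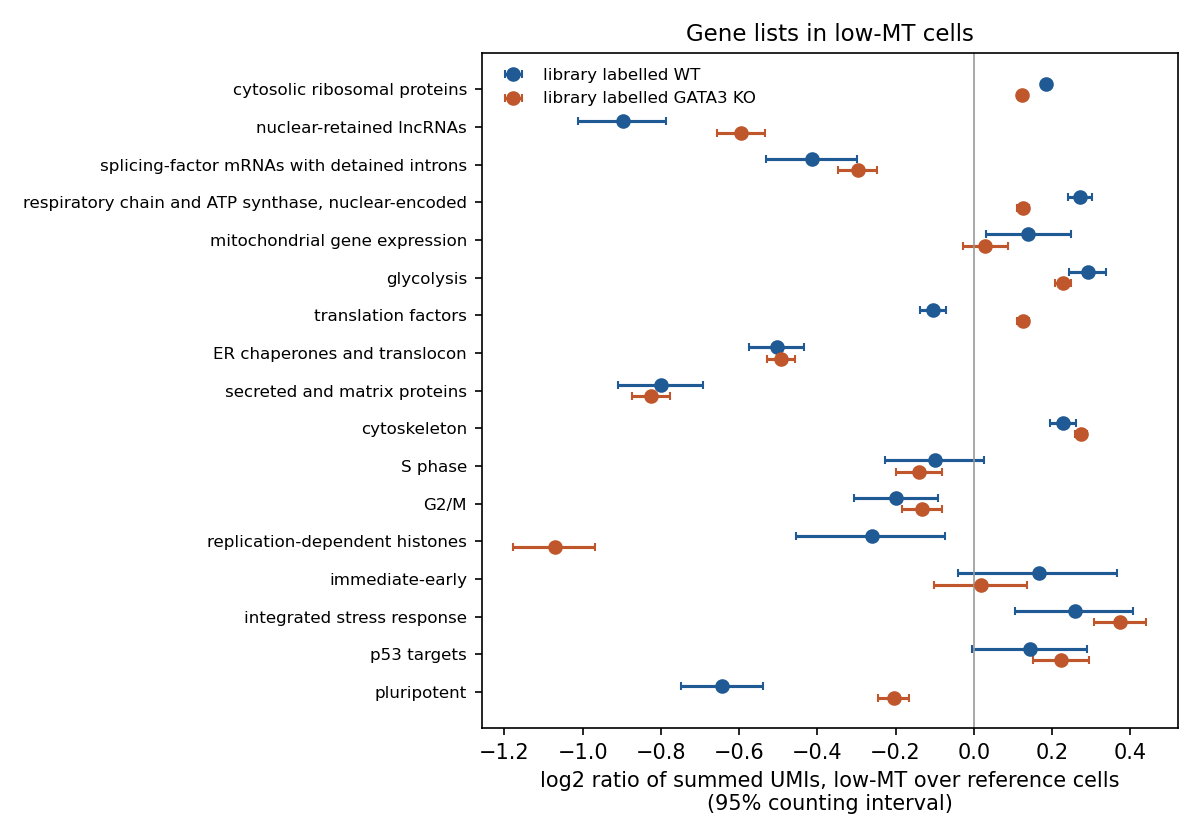
Log2 ratio of the summed UMIs of each gene list, low-MT over reference cells (x axis), with its 95% counting interval, in both libraries. Nuclear-retained lncRNAs (a sum made up mostly of MALAT1), ER chaperones, and secreted and matrix proteins lay below 0 in both. Ribosomal, respiratory chain, glycolysis and cytoskeleton lists lay above 0.

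The widest pattern in low-MT cells followed transcript length. Of all genes tested, 1171 were past 2-fold lower and 77 higher in WT, and 492 lower and 10 higher in KO. The median log2 ratio fell with each class of canonical transcript length, from 0.22 below 1000 bases to -0.34 at 3000 to 3999 and -1.32 at 12000 bases or more in WT. The same medians in KO were 0.12, -0.12 and -0.94. The share of genes past 2-fold lower went from 1.98% in the shortest class to 61.2% in the longest in WT, and from 0.935% to 48.8% in KO. Spearman's rho between length and ratio was -0.50 over 5812 genes and -0.52 over 5816 genes, which are not independent replicates. With the longest annotated transcript in place of the canonical one, rho was -0.46 and -0.48. Against the depth-matched reference the median went from 0.30 to -1.53 in WT and from 0.16 to -1.15 in KO.

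**Figure D4:**
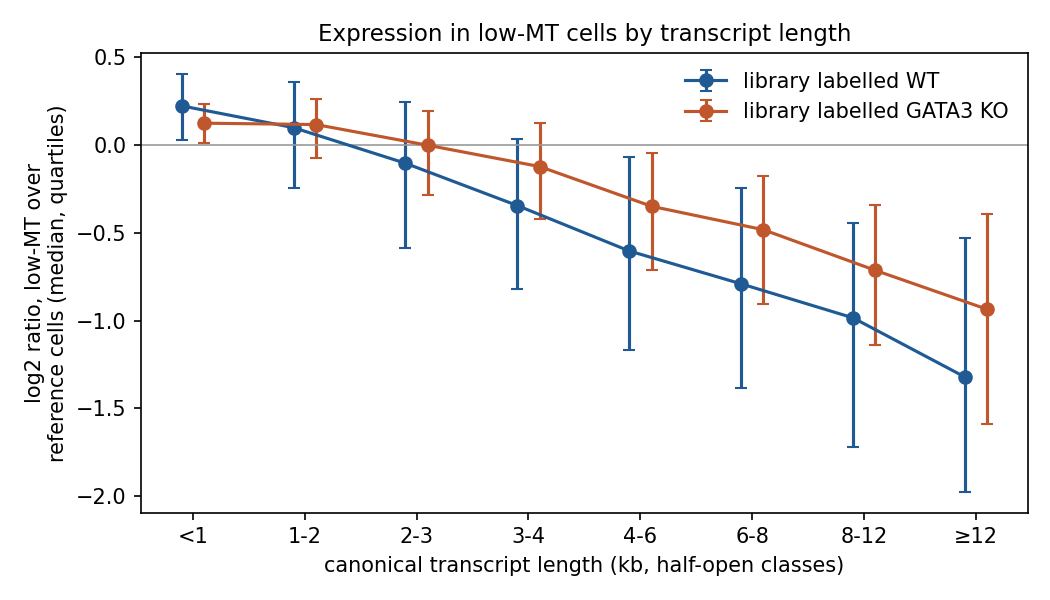
Median log2 ratio of genes, low-MT over reference cells (y axis; bars are the quartiles over genes), by class of canonical transcript length in kilobases (x axis) for both libraries. The medians drop from 0.22 and 0.12 in the shortest class to -1.32 and -0.94 in the longest.

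Most low-MT cells showed this one by one. Transcripts of at least 8000 bases made up a median of 2.46% of UMIs (1.74 to 3.22%) in low-MT cells of WT against 4.23% in the reference, and all 55 lay below the 10th percentile of reference cells (3.36%). In KO the median was 2.44% (1.24 to 9.38%) against 4.12%, and 195 of 226 lay below the 10th percentile (3.30%), while 7 lay above the 90th. The depth-matched reference of WT spread more widely, with a 10th percentile of 2.19% and a median of 4.86%, so that 12 of the 55 lay below its 10th percentile and all 55 below its median. In KO, 200 of 226 lay below the matched 10th percentile of 3.40%. The 12 genes with the lowest ratios by the naming rule included MTRNR2L1 and MTRNR2L12, near-identical copies of a mitochondrial gene. Most of the 12 were long, and 8 had canonical transcripts of at least 8000 bases. Examples are DYNC1H1 (ENSG00000197102, chromosome 14, 101964573 to 102056443, 78 exons, 19940 bases), the dynein heavy chain, at 18.2 against 103 CPM (-2.44) and 23.0 against 168 CPM (-2.82), and DST, the cytolinker dystonin, of 24709 bases, at -2.61 and -3.10. SPTBN1, a spectrin, stood at -3.03 and -2.60, the scaffold AKAP12 at -3.0 and -2.94, and the golgins GOLGB1 and GOLGA4 at -3.23 and -2.43 and at -3.64 and -2.42. In WT these values rest on few UMIs, since 20 CPM equals 5.50 UMIs there and 22.6 in KO.

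The length pattern also ran inside a list. Among 21 genes of G2 and mitosis, the long CENPF (10290 bases), a kinetochore protein, stood at 50.9 against 308 CPM (-2.57, -3.42 to -1.84) and 87.6 against 420 CPM (-2.25, -2.54 to -1.96). MKI67 (12716 bases), the proliferation marker Ki-67, was at -2.49 and -2.57, and CENPE (8541 bases) at -1.68 and -1.25. The shorter CCNB1 (2029 bases), mitotic cyclin B1, was at 302 against 233 CPM (0.37, 0.04 to 0.69) and 319 against 237 CPM (0.43, 0.27 to 0.58), and UBE2C (777 bases) at 0.05 and 0.35. The list held 4 and 3 genes past 2-fold lower (19.0% and 14.3%, in WT about the share of all genes) while 10 and 13 of 21 ratios lay above 0, and in KO its median was 0.09 although its sum was -0.13. S phase genes summed to -0.10 (-0.23 to 0.03) and -0.14 (-0.20 to -0.08). Of these, 1 and 0 of 20 were past 2-fold lower (5% and 0%), beside 20.1% and 8.45% of all genes. With the depth-matched reference the sums were -0.07 and 0.04 for S phase, and -0.06 and -0.001 for G2 and mitosis. MALAT1 itself is 10434 bases long, and its ratios of -0.88 and -0.53 lay above the medians of its length class, -0.98 and -0.71. Against the depth-matched reference they were -0.61 and -0.56 beside class medians of -1.23 and -0.91.

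The lists of the secretory pathway lay below genes of like length. After the median of each gene's length class was subtracted, secreted and matrix genes kept a median of -0.89 in WT and -0.67 in KO, and ER genes -0.48 and -0.43. Ribosomal protein genes were then at 0.02 in both libraries, and cytoskeletal genes at 0.13 and 0.20, while nuclear-retained lncRNAs were at -0.18 and -0.68. The same medians against the depth-matched reference were -0.90 and -0.86 for secreted and matrix genes, -0.49 and -0.30 for ER genes, 0.00 and -0.15 for ribosomal protein genes, -0.01 and 0.37 for cytoskeletal genes and -0.74 and -1.04 for the lncRNAs. Canonical length can differ from that of the expressed RNA. KCNQ1OT1 was classed at 679 bases, although its gene spans 2597308 to 2700003 on chromosome 11. The lncRNA medians rest on few genes and are uncertain for this reason. The short histone transcript HIST1H4C (405 bases) also stood apart from its class, at 644 against 848 CPM (-0.40, -0.62 to -0.18) in WT and 583 against 1286 CPM (-1.14, -1.25 to -1.03) in KO. Its ratios against the depth-matched reference were -0.15 and -0.82. The 7 replication-dependent histone genes tested in WT had a median ratio of 0.40 although the sum of the list was at -0.26, or 0.01 against the depth-matched reference.

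The ratios of single genes were alike in part between the libraries. Over the 5298 genes tested in both, Pearson's r was 0.65 and Spearman's rho 0.62, and 72.5% of genes had the same sign. Of these genes, 337 were past 2-fold lower in both, 31.6% of those lower in WT and 77.8% of those lower in KO. NIPSNAP3A alone was past 2-fold higher in both, at 21.8 CPM or 6 UMIs against 10.2 CPM and at 21.2 against 8.98 CPM. Its reference levels lay below the 20 CPM minimum, so it was tested only through its level in low-MT cells.

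Differentiation markers were mixed in low-MT cells. Of 8 primitive streak genes tested in WT, 2 (25%) were past 2-fold lower and 1 higher. Of all genes there, 20.1% were lower, a share near that of the list, and 1.32% higher. In KO 0 streak genes reached the minimum level. MIXL1, a homeobox gene of the primitive streak, stood at 153 CPM in low-MT cells and 142 CPM in reference cells of WT, and at 7.08 and 5.62 CPM in KO. CER1, a secreted antagonist made by anterior streak and endoderm, stood at 69.1 and 64.5 CPM in WT and at 0.885 and 1.03 CPM in KO. Among the other markers in WT, the streak factor EOMES was lower, at 32.7 against 75.9 CPM (-1.19, -2.27 to -0.28). The endoderm factor SOX17 was higher, at 29.1 CPM or 8 UMIs against 11.0 CPM (1.33, 0.16 to 2.32). It passed the 20 CPM minimum only through the low-MT cells, and the number of cells that gave its UMIs was not counted. GSC, the 1 streak gene past 2-fold higher, also passed the minimum only through the low-MT cells. The intervals of TBXT (14.5 against 29.0 CPM), FGF4 (7.27 against 20.8 CPM) and GSC (25.5 against 10.5 CPM) include 0, and GATA6 had 0 UMIs against 8.97 CPM in the reference. The pluripotency factor POU5F1 was nearly level in WT, at 1055 against 1063 CPM, and stood at 2054 against 1661 CPM in KO (0.31, counts uncertain for its near-identical copies). SOX2 stood at 76.4 against 186 CPM (-1.28) and 297 against 447 CPM (-0.59). PODXL, a surface glycoprotein of stem cells, was past 2-fold lower in both at -1.87 and -1.18. Over the 9 pluripotency markers, 4 and 1 (44.4% and 11.1%) were past 2-fold lower and 0 higher, in KO near the share of all genes. Amnion and trophectoderm markers stayed low, the highest being TFAP2C at 21.8 CPM in WT and TFAP2A at 46.0 CPM in KO. The early neural ectoderm list, which holds POU3F1, summed to -0.88 and -0.57. Of its 2 and 3 genes tested, 0 had a ratio above 0, and 1 and 0 were past 2-fold lower, beside 20.1% and 8.45% of all genes. IRX2 was at -1.24 and -0.87 and ZIC2 at -0.77 and -0.29.

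The sums of stress-linked lists lay above 0 against the main reference, while some of their members in WT were past 2-fold lower. The log2 ratios of the summed p53 targets were 0.14 (-0.005 to 0.29) and 0.22, with 3 of 9 and 0 of 10 genes past 2-fold lower. Those of immediate-early genes were 0.17 (-0.04 to 0.37) and 0.02 (-0.10 to 0.14), with 2 of 5 and 0 of 6 lower. Of all genes tested, 20.1% and 8.45% were past 2-fold lower. Against the depth-matched reference the sums were -0.003 and 0.38 for p53 targets and 0.07 and 0.16 for immediate-early genes. For the integrated stress response the sums were 0.26 and 0.37 against the main reference, with 3 of 7 and 0 of 8 lower and 0 higher. Against the depth-matched reference they were 0.27 and 0.62. There 4 of 8 were lower in WT, beside 27% of all genes. In KO 3 of 7 were higher and 1 lower, beside 1.89% and 13.5% of all genes. The most abundant members of this list were the serine synthesis enzymes PHGDH (0.65 and 0.40) and PSAT1 (0.47 and 0.56). ATF4, its transcription factor, was at 54.5 against 127 CPM in WT (-1.20) and 228 against 201.2 CPM in KO (0.18). In WT the list medians were below 0 where the sums were above it, at -0.41 for p53 targets, -0.39 for immediate-early genes and -0.11 for the stress response.

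Along the whole range of mitochondrial share, low-MT cells lay at the end opposite to that of cells above 25%. Below 1%, class means of transcripts of at least 8000 bases were 2.40 to 2.55% of UMIs in WT and 2.56 to 2.70% in KO. They were 2.77% and 2.91% from 1 to 2%, and 3.16% and 3.47% from 2 to 5%. The low share thus ran on into cells the rule leaves out. Those cells were also shallow, with class medians of 11064 and 11310 UMIs in WT and 14634 and 15744 in KO. Long transcripts stood at 4.23 to 4.46% and 4.12 to 4.41% in the classes from 5 to 20%, and at 6.10% and 8.07% at 25% and above. MALAT1 averaged 0.133 to 0.278% and 0.167 to 0.183% below 1%, and 0.672% and 0.577% at 25% and above, where NEAT1 was at 0.0251% and 0.0253%. Ribosomal protein mRNAs were lowest there, at 25.6% and 22.7%. These are class means. Single low-MT cells differed, and 7 of 55 in WT and 62 of 226 in KO had a larger MALAT1 share than the reference median.

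**Figure D5:**
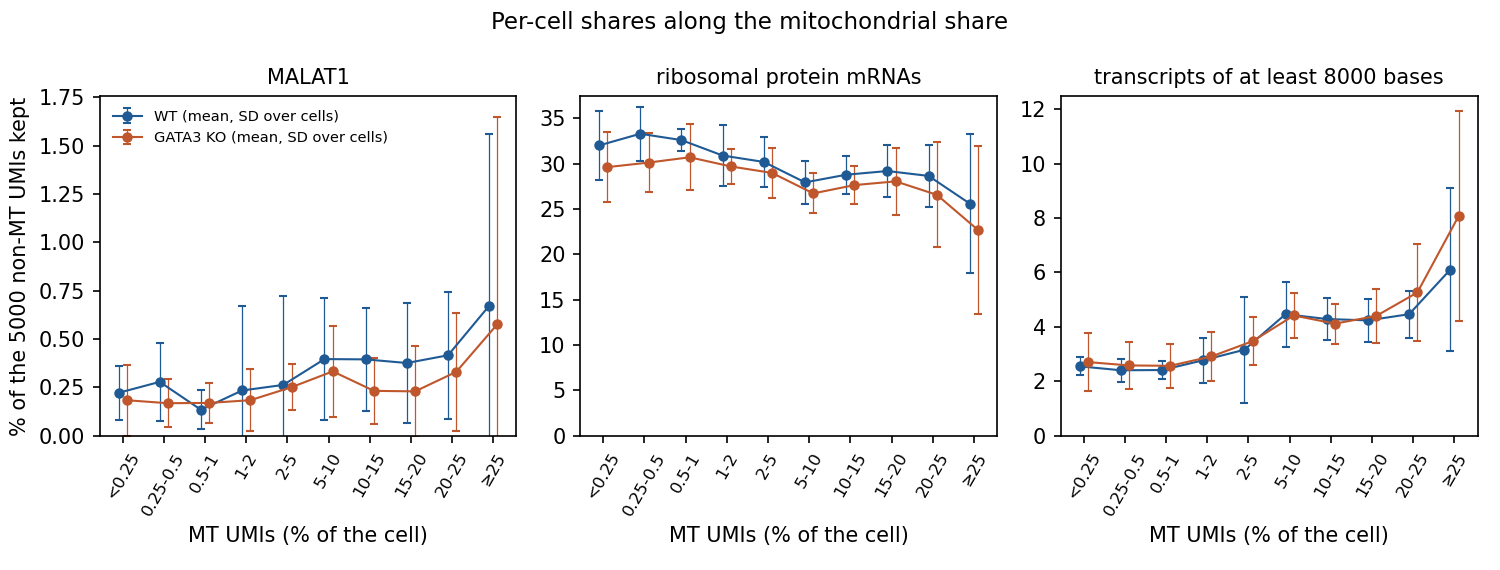
Mean share of the 5000 retained non-mitochondrial UMIs (y axis, percent; bars are the SD over cells) in classes of the mitochondrial share (x axis) for both libraries. Long transcripts average 2.40 to 2.70% below 1% mitochondrial UMIs and reach 6.10 and 8.07% in the last class, while ribosomal protein mRNAs drop to 25.6 and 22.7%.

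Low-MT cells also varied among themselves. Within them the share of long transcripts and the share of MALAT1 had a Spearman's rho of 0.55 over 55 cells in WT and 0.52 over 226 in KO, beside 0.59 and 0.60 in reference cells. Long transcripts and ribosomal protein mRNAs had -0.33 and -0.68. Both are shares of the same UMIs of a cell. The low-MT cell of KO with the largest share of long transcripts, 9.38%, had 15.3% ribosomal protein mRNAs and 0.72% MALAT1. The cell of KO with the smallest ribosomal share, 15.2%, had 7.52% long transcripts and 0.18% MALAT1. The mitochondrial share within the low-MT range had almost no relation to long transcripts (-0.08 and -0.03) or to ribosomal protein mRNAs (0.02 and 0.00).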

How the data were processed

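Single-cell RNA was measured in 1 library labelled WT and 1 labelled GATA3 KO. The deposited values are raw UMI counts per gene and cell, made by the authors with 10x Genomics 3′ libraries and Cell Ranger 3.0.2 against GRCh38 and limited to barcodes called as cells. No filter on genes or mitochondrial share had been applied. The libraries held 200569649 and 284280464 UMIs. The protocol text of the library labelled WT names a shorter BMP4 exposure than its title and duration, and 48 h was used.

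Members and gene lists were chosen with earlier results of these data known, and length classes after the ratios had been seen. MT- UMIs were removed, cells thinned without replacement to 5000 UMIs (seed 7) and counts summed per set and given as CPM. Ratios (log2, after adding 1 CPM to both sides, which understates low genes) set low-MT over reference cells within a library. Their 95% bounds were exact binomial ones, from the pair of counts. Named were MALAT1, POU3F1 and ESPN, the 12 highest and 12 lowest genes of the same sign in both libraries by the ratio nearer 0 (at least 50 CPM in the higher set), and per list its most abundant members and those past 2-fold in both libraries; other genes named in the text were chosen after their values were seen. Position, class and canonical transcript length came from GENCODE for 33113 of 33538 genes by identifier. Doublets were not called; 0 low-MT cells exceeded 7500 genes. The calculation was checked on simulated counts. Python 3.11.15, numpy 2.4.6 and scipy 1.17.1 were used.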

Additional observations from a re-analysis of the deposited data

Results flagged for a closer look

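A few reported ratios pointed in opposite directions in the 2 libraries, each with a counting interval that leaves out 0. With 1 library of each kind, the difference between the libraries was not tested. The summed translation factors were at -0.10 in WT and 0.13 in KO, and at -0.26 and 0.02 against the depth-matched reference. Their most abundant member EEF1A1, the elongation factor that brings tRNAs to the ribosome, stood at 8189 against 10396 CPM in WT (-0.34) and 14047 against 12777 CPM in KO (0.14), which became -0.10 against the depth-matched reference. The RNA helicase DDX5 stood at 225 against 293 CPM (-0.38) and 487 against 400 CPM (0.28). AEN, a nuclease induced by p53, stood at 3.64 CPM, or 1 UMI, against 32.2 CPM in WT (-2.84, -4.92 to -0.63) and at 56.6 against 42.7 CPM in KO (0.40, 0.02 to 0.76).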

How the results depend on the processing

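MALAT1 stayed lower in low-MT cells of both libraries under each of 7 alternatives, as did the secreted and matrix sum. Values given as pairs are for WT, then KO. With the depth-matched reference, MALAT1 was at -0.61 in WT, the secreted sum at -0.75 and the ribosomal sum at -0.0199 in KO, a reversal; 213 and 115 genes were past 2-fold higher and 822 lower in KO. With members under 0.5% mitochondrial UMIs, MALAT1 was at -0.69, the secreted sum at -1.05 and 187 genes were higher in WT, and the ribosomal sum was at 0.12 in KO. With a reference of 5 to 10%, the ribosomal sum was at 0.22 and 0.16, and MALAT1 at -0.91 in KO. Thinning to 10000 UMIs gave ribosomal sums of 0.21 and 0.17, secreted sums of -1.14 and -1.0 and 44 and 2 genes higher. Thinning to 2000 UMIs gave 289 and 37 genes higher and a ribosomal sum of 0.11 in KO. Without thinning, 14 and 3 genes were higher, the secreted sum was -0.92 in WT and the ribosomal sum 0.14 in KO. A minimum of 5 CPM called 2846 and 1240 genes lower and 313 and 51 higher, over more genes tested. The share of low-MT cells was 1.05% and 3.09% under 0.5%, 1.89% and 4.28% under 2%, 2.63% and 4.95% with a minimum of 1000 genes, and 1.97% and 4.64% without cells above 7500 genes. The cause of the other shifts was not tested. Depth limits WT most, where low-MT cells held 275000 UMIs after thinning against 1130000.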

Other observations

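Some transcripts were singled out after their values were seen. NPPB, which encodes a secreted natriuretic peptide, stood at 58.4 CPM, or 66 UMIs, in low-MT cells in KO against 11.4 CPM in the reference (log2 ratio 2.26, 1.86 to 2.65). It was the only gene past 2-fold higher among the secreted and matrix genes, but passed the 20 CPM minimum there only through the low-MT cells. The number of cells that gave its UMIs was not counted. In WT it stood at 10.9 CPM, or 3 UMIs, against 30.2 CPM (-1.39, -3.26 to 0.09). ANXA1, a calcium-dependent membrane-binding protein, stood at 92.0 against 20.8 CPM in KO (2.09) and at 40 CPM, or 11 UMIs, against 19.8 CPM in WT (0.98). Its UMIs came from 24 of 226 low-MT cells in KO and 6 of 55 in WT, and against the depth-matched reference its ratio was 1.98 in KO but -0.41 in WT.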
